A study of Rattus norvegicus with 23 samples.

Results

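The area postrema of control adult rats was profiled on 4 Affymetrix Rat Genome 230 2.0 arrays, and its baseline transcriptome is described here by signal level. The arrays were those whose sample title marks them as area postrema controls, 4 of the 23 arrays in the series. Each holds RNA pooled from 5 male Sprague Dawley rats, an outbred laboratory strain, aged 10 to 12 weeks, so that 20 animals stand behind the 4 arrays. The treatment given for all 4 is that of a control animal, and no other agent, allele or diet is named for them. The remaining 19 arrays, from fasted or dehydrated Sprague Dawley rats and from 2 further strains, were not used. A pool hides the spread between its animals, and the labels do not say how the tissue was cut from the structures around it.

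The area postrema is a small sensory organ on the dorsal surface of the medulla, at the caudal end of the fourth ventricle. Its capillaries are fenestrated, so that its neurons and glia meet hormones, toxins and salts of the blood directly, and it is known as a trigger zone for vomiting and as a target of gut and pancreatic hormones that reduce feeding. Its neurons project to the nucleus of the solitary tract and the parabrachial nucleus. Tanycyte-like glia at its border with the solitary nucleus limit the spread of solutes into the brain, and the choroid plexus of the fourth ventricle lies close by.

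Each probe set has 1 signal per array, on a linear scale that had been set to the same trimmed mean of 100 on every array. The median signal over the 31042 probe sets that are not array controls ran from 42.36 to 43.55, and it served as the reference level of each array. A gene with a single symbol was read by its brightest probe set, and its distance from the reference is the mean over arrays of log2(signal + 16) minus log2(median + 16). A gene is called above or below the median when limma's one-sample moderated test gave a Benjamini-Hochberg adjusted p under 0.05 and all 4 arrays lay on that side, and neither when it did not. Of 14217 named genes, 8572 (60.3%) were above, 4076 (28.7%) were below and 1569 (11.0%) were neither. The median named gene had a signal of 81.1 and lay 0.71 above the reference on the log2 scale. A gene can therefore be called above the array median and still be dimmer than the middle of the named genes, and the share of a list's members above or below is to be read beside 60.3% and 28.7%.

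Signal depends on a probe set's binding strength as well as on its transcript, so that the order of 2 genes by signal is not an order of transcript amounts. A gene below the median may still be expressed. In pooled tissue, fewer cells of a type and less RNA per cell cannot be told apart. The probe sets of a gene also differ: of 3436 genes that have several probe sets and whose brightest was above the median, 1728 (50.3%) had another that was below it. Levels are given as mean signal ± SD over the 4 arrays, and values in every array are listed in the order control 1 to control 4.

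The 4 arrays were close to each other. Across the genes above the median, Pearson's r of a pair of arrays ran from 0.975 to 0.984, and the median difference of a gene between 2 arrays was 0.126 to 0.156 on the log2 scale. Genes are not independent replicates, so these values describe the arrays only. The call of a gene as above also leaves out genes that vary strongly near the reference, which favours close arrays. The labelling text of arrays 3 and 4 carries a closing phrase on standard procedures that arrays 1 and 2 lack. A limma test of arrays 3 and 4 against 1 and 2 called 0 of 18625 probe sets (0.0%) after adjustment. At an unadjusted p under 0.05 it called 859 (4.61%), and with a pseudocount of 64 it called 1 after adjustment. With 2 arrays on each side the test can find only large differences, so it does not show that the 2 sets were alike. On the log2 scale the 3' Gapdh control probe set exceeded its 5' partner, a measure of RNA integrity and amplification, by 0.209 in control 1, 0.571 in control 2, 0.334 in control 3 and 0.251 in control 4. Control 3 stood apart in markers of the choroid plexus, of which 9 of the 14 measured were highest in it, beside 27.8% of all genes above the median. Results that rest on that array are given over all 4 arrays and over the other 3.

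Genes known from area postrema neurons are described first. Their list was chosen with earlier results of these data known, so it is no independent check of the labelled tissue. Of 14 measured, 10 were above the median (71.4%, beside 60.3% of all named genes), 3 were below and 1 was neither, and their median distance was 1.72 beside 0.71. Calcr, the calcitonin receptor that with a RAMP protein forms the amylin receptor, had signals of 134, 95.6, 150.1 and 118. All 4 arrays lay above the reference (log2 1.24, adjusted p = 1.49e-06), although a second probe set of the gene was below it at 28.8. Its partner Ramp3 read 65.5, 66.8, 75.4 and 81.3, a narrow range just above the array medians (log2 0.58, adjusted p = 0.000105) and below the median of named genes.

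The extracellular calcium-sensing receptor Casr had signals of 292, 271, 229 and 240.2, all far over the array medians (log2 2.21). Ret, the tyrosine kinase that signals for receptors of the GDNF family, read 563, 627, 567 and 567. The arrays differed little, with a CV of 5.3%. The zinc transporter gene Tmem163 (766 ± 68.5), the vesicular glutamate transporter gene Slc17a6 (602 ± 61.1) and the ETS transcription factor gene Etv1 (587 ± 33.9) were the brightest members. Gipr, the receptor for the incretin GIP, was above the median at 114 ± 28.2.

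Glp1r, the receptor through which glucagon-like peptide and its drug analogues act, read 35.5, 31.1, 38.6 and 19.5, below the reference on all 4 arrays (log2 -0.34, adjusted p = 0.0269). The call for Glp1r was lost without control 2 (limma adjusted p = 0.0644) or without control 4 (0.113). When a distance of at least 0.5 was required, Glp1r and Ramp3 were no longer called, nor was Htr3a. The ionotropic serotonin receptor subunits Htr3a (23.5 ± 4.0) and Htr3b (16 ± 6.5) were below it too. Avpr1a, a vasopressin receptor, was neither at 40.4 ± 8.8. Gfral, also known from these neurons, was not analysed here.

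Position along the body axis showed in the Hox genes, transcription factors whose paralogue number follows their domain from hindbrain to tail. All 10 measured genes of paralogue groups 2 to 6 were above the median, with mean signals of 186.8 to 1700.4. All 10 measured genes of groups 8 to 13 were below it, at 0.5 to 33.2. Hoxa5 had signals of 1665, 1756, 1727 and 1653, and its arrays differed by a CV of 2.9%. Hoxc4 (570.4 ± 11.2), Hoxd3 (566 ± 59.8) and Hoxb2 (551 ± 46.0) followed. The change of side fell at group 7, where Hoxb7 was neither at 42.3 ± 8.5 and Hoxa7 was below at 2.5 ± 1.7, and Hoxd1, the measured gene of group 1, was below at 4.2 ± 3.4. The bands of groups end where the calls change, so their all-or-none counts follow from these limits. Of 24 Hox family entries, 1 of them an antisense transcript, 10 were above (41.7%, beside 60.3% of all named genes). Below were 13 (54.2%, beside 28.7%). The count over the whole Hox family was added after its values were seen.

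**Figure D1:**
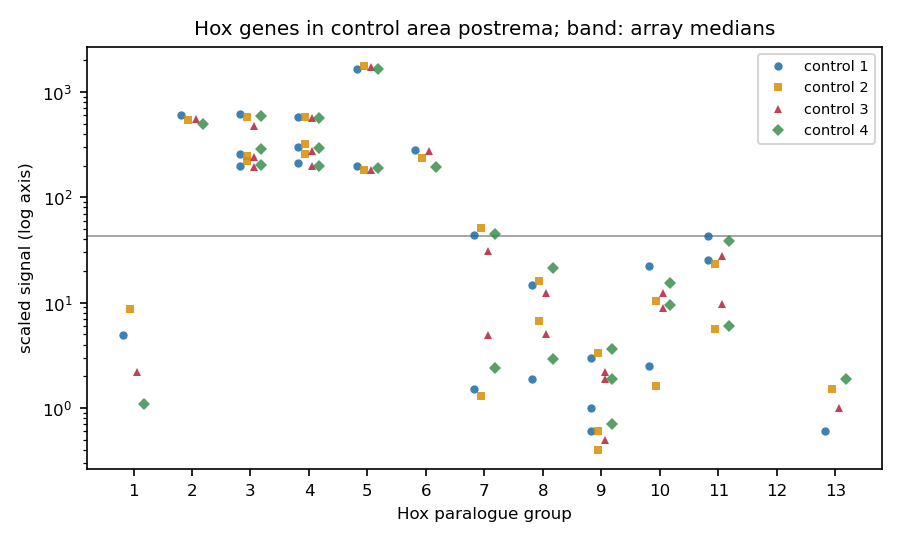
Signal of each measured Hox gene on the 4 control arrays (vertical axis, log scale) by paralogue group (horizontal axis), with 1 symbol per array and gene and a grey band at the array medians of 42.36 to 43.55. The 10 genes of groups 2 to 6 lie between mean signals of 186.8 and 1700.4, and the 10 genes of groups 8 to 13 lie between 0.5 and 33.2.

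Of the measured forebrain and midbrain transcription factors, 15 of 15 were below the median, beside 28.7% of all named genes. Their mean signals ran from 0.8 for Emx2, a cortical patterning gene, and 0.9 for Six3, a forebrain factor, to 29.5 for Bcl11b, a factor of cortical and striatal projection neurons. Emx1, another cortical gene, was 21.0 ± 13.7, with 41.5 in control 1, and Otx2, a factor of forebrain, midbrain and choroid plexus, was 19.9 ± 12.4. Of the hindbrain list as a whole, 9 of 14 were above (64.3%) and 4 were below (28.6%), shares near the 60.3% and 28.7% of all named genes. Among the 4 below were Phox2a, which specifies noradrenergic neurons, at 32.3 ± 4.9 and Tlx3, a factor of dorsal hindbrain neurons, at 2.8 ± 1.4. The call for Phox2a was lost without control 1 (limma adjusted p = 0.0574), control 2 (0.0792) or control 4 (0.0576). As a guide to what a gene without a known source in brain reads on these arrays, 33 of 39 genes of other organs were below the median and their median signal was 12.4. The 2 above it were the skeletal muscle actin gene Acta1 (80.1 ± 6.2) and the keratin gene Krt10 (74.6 ± 3.6), both below the median of named genes. The insulin gene Ins1 was neither at 43.2 ± 6.8, and the sperm protein gene Tnp2 (0.6 ± 0.3) and the liver enzyme gene Cyp3a2 (0.5 ± 0.1) were below.

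The brightest gene was COX2, the mitochondrially encoded subunit II of cytochrome c oxidase and not the prostaglandin enzyme of a like name, with 7136, 8526, 6858 and 8298. Cst3, the secreted protease inhibitor cystatin C, followed with 7152, 7715, 7174 and 8169. Gnas, the stimulatory G protein alpha subunit that couples many hormone receptors to cyclic AMP, had 6509.8, 7473, 6775 and 7250.1, while its dimmest probe set read 31.6. The level of Gnas rests on probe sets that can match several transcripts, and without them it lay at -0.32, below the reference (log2). The 30 brightest named genes held 3.7% of the summed signal and had CVs of 4.1% to 18.3% (median 8.0%). Control 2 was the highest array for 23 of the 30, beside 27.0% of all genes above the median, and control 3 the lowest for 17.

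Genes of energy metabolism and translation were frequent among them. The 30 held 5 genes of the respiratory chain and ATP synthase (COX2, COX1, Cox8a, Atp5f1b and Atp5mc3) and 6 ribosomal protein genes (Rps29, Rps23, Rpl41, Rpl19, Rps6 and Rpl27a), with the elongation factor gene Eef1a1 (4697 ± 244) and the lactate dehydrogenase gene Ldhb (4716 ± 351) among them. Over all named genes, 42 of 48 ribosomal protein genes and 90 of 98 respiratory chain and ATP synthase genes were above the median (87.5% and 91.8%, beside 60.3% of all named genes), counts added after the values were seen. Both sets were taken by symbol, and the respiratory chain set also holds genes of assembly factors and a pseudogene. Of the astrocyte list, 3 genes were among the 100 brightest. S100b, a calcium-binding protein, had 5034, 5353, 5679 and 5532. The glutamate transporter gene Slc1a3 had 5185, 5833, 4559 and 5109. Aldoc, the brain form of aldolase, was 4101 ± 179. Outside that list, the 30 held Apoe, the lipid carrier (4800 ± 434), Sparcl1, a matrix protein that promotes synapse formation (6061 ± 595), Ndrg2 (4294 ± 785) and the metallothionein gene Mt3 (6295 ± 866). Another probe set of Apoe was below the reference at 4.7. For Ndrg2 the level rests on a probe set that can match several transcripts, and without such probe sets the gene lay 1.53 below the reference (log2).

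The remaining genes of the 30 have varied roles. Reln, the matrix glycoprotein reelin, which guides neuronal positioning, read 5219, 5853, 4374 and 5477. Igfbp5, an insulin-like growth factor binding protein, read 5420.3, 5740.4, 3718 and 5193, with control 3 the lowest. The BRI family membrane protein genes Itm2c (5916 ± 558) and Itm2b (4608 ± 447), Dbi, which encodes the acyl-CoA-binding protein and precursor of endozepine peptides (6169 ± 774), Pebp1, a Raf kinase inhibitor (4412 ± 367), the actin-sequestering peptide gene Tmsb4x (6181 ± 473) and Zwint, a kinetochore-associated protein gene (4925 ± 270.1), complete the list.

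**Figure D2:**
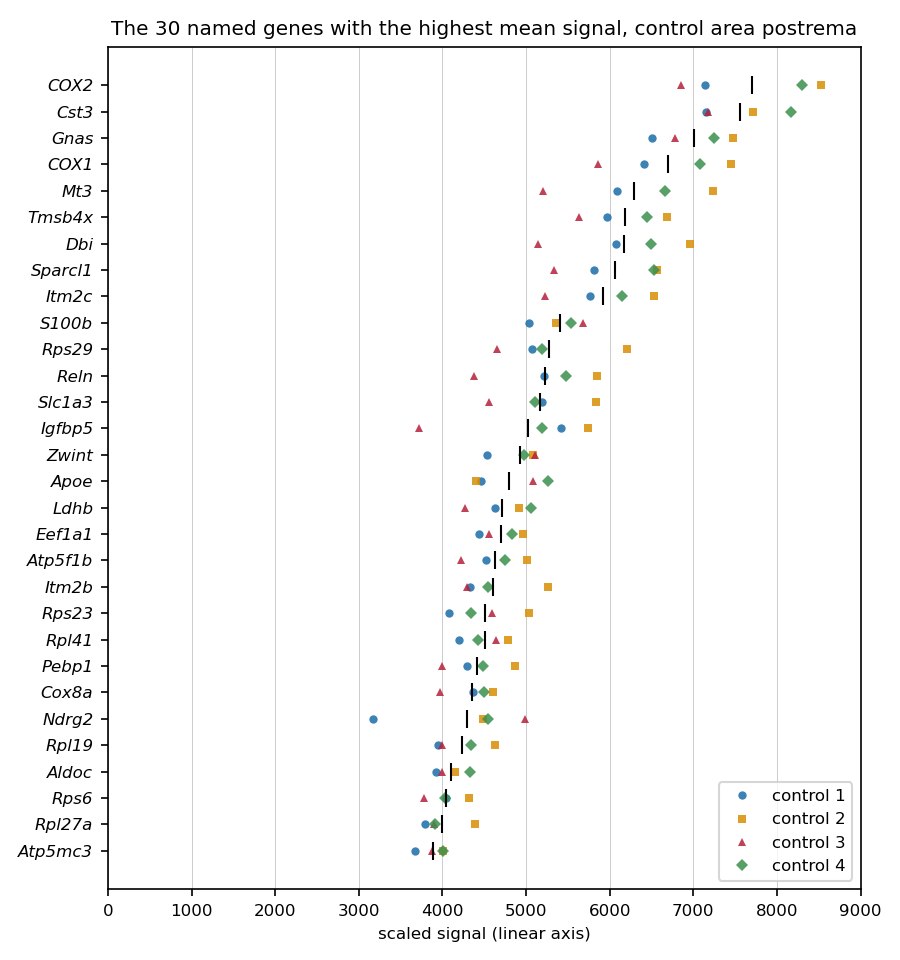
Signal of the 30 named genes with the highest mean on each of the 4 control arrays (horizontal axis, linear from 0), with 1 coloured symbol per array and a black tick at the mean. The means run from 3888 for Atp5mc3 to 7704 for COX2, and the symbols of a gene lie close together, with CVs of 4.1% to 18.3%.

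Peptide precursors were split. Of 43 measured, 19 were above the median (44.2%, beside 60.3% of all named genes) and 19 were below (44.2%, beside 28.7%). Cartpt, the precursor of the appetite-reducing peptide CART, had signals of 2425, 2646, 2074 and 2543. Penk, the enkephalin precursor, had 2175, 2305, 2306 and 2274, with a CV of 2.7%. Both were more than 5 above the reference on the log2 scale, and the next precursor, Cck, the precursor of the satiety peptide cholecystokinin, lay at 2.76 with a signal of 384 ± 33.0. A middle group held Nts, the neurotensin precursor (227 ± 54.3), Npff, the precursor of an opioid-modulating peptide (162 ± 37.2), Npy, the precursor of the feeding peptide neuropeptide Y (154 ± 41.6), and Nucb2, the nesfatin precursor (135 ± 5.2).

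The posterior pituitary hormone precursors varied between arrays. Oxt, the oxytocin precursor, read 214, 81.6, 69.0 and 58.2, with control 1 at 3.08 times the mean of the other 3. Avp, the vasopressin precursor, read 168, 87.0, 75.2 and 94.1. Both stayed above the reference on all 4 arrays. The galanin precursor Gal read 75.8, 85.8, 176 and 62.0, with control 3 the highest and a mean of 74.5 ± 12.0 without it. Tac1, the precursor of substance P, was just above the reference at 69.5, 65.1, 75.3 and 96.9 and below the median of named genes.

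Precursors below the median included Pomc, the source of melanocortins (4.9 ± 3.7), and Gcg, the source of glucagon-like peptides (0.9 ± 0.4), which neurons of the neighbouring solitary nucleus are known to express. Pyy, a gut satiety peptide precursor, read 1.3 ± 0.5. Vip (14 ± 5.7) and Crh, the precursor of corticotropin-releasing hormone (12.0 ± 2.1), were also below. Adcyap1, the PACAP precursor, was neither, with 38.7, 44, 151 and 23.3, and its SD was close to its mean. Without control 3 its mean was 35.3 ± 10.8.

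Of 10 measured genes that pack and process these peptides, 9 were above the median (90.0%, beside 60.3% of all named genes) and 0 were below, with a median distance of 4.10 beside 0.71. Cpe, carboxypeptidase E, which trims prohormones, had 2566, 2981, 3132 and 2925. Scg5, the chaperone of the prohormone convertase encoded by Pcsk2, was 1570.4 ± 90.2, while Pcsk2 itself was neither at 44.2 ± 14.9. The granins Chgb (1361 ± 52.0), Scg3 (1273 ± 123), Scg2 (835 ± 59.8) and Chga (348 ± 26.7) form the matrix of dense-core vesicles. Vgf, a secreted granin-like precursor induced by neurotrophins, was the dimmest of the 9 at 344 ± 49.5.

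Granin and peptide genes are textbook targets of CREB, the factor that responds to cyclic AMP through the palindrome TGACGTCA. This motif was searched in the 250 bases before 1 RefSeq start site per gene symbol of the assembly GRCr8. It was found in 2 of 9 granin promoters (22.2%), in 2 of 32 peptide promoters (6.25%), in 1 of 12 promoters of the area postrema neuron list (8.33%), in 0 of 7 promoters of the hindbrain transcription factors, in 310 of 11733 promoters of the named genes measured (2.64%) and in 466 of 27457 promoters in all (1.7%). The palindrome reads the same on both strands and overlaps no other motif searched. The 4 windows of 80 bases are those around every match in granin and peptide promoters. Each is shown 5′ to 3′ along the gene's strand with the motif in capitals.
Cartpt, chr2:32991334-32991413, minus strand: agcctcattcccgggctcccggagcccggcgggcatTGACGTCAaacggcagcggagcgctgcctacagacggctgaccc
Scg2, chr9:88256946-88257025, minus strand: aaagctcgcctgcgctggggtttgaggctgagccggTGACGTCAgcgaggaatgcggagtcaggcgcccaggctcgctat
Vgf, chr12:25277067-25277146, minus strand: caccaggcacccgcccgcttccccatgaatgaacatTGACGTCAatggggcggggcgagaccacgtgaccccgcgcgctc
Ucn, chr6:30957940-30958019, plus strand: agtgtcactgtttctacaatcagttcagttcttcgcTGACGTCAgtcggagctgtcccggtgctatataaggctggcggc
Cartpt, Scg2 and Vgf were above the median, and Ucn, the urocortin precursor, was below it at 21.4 ± 2.6. A match describes the letters of the window only and shows no binding.

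**Figure D3:**
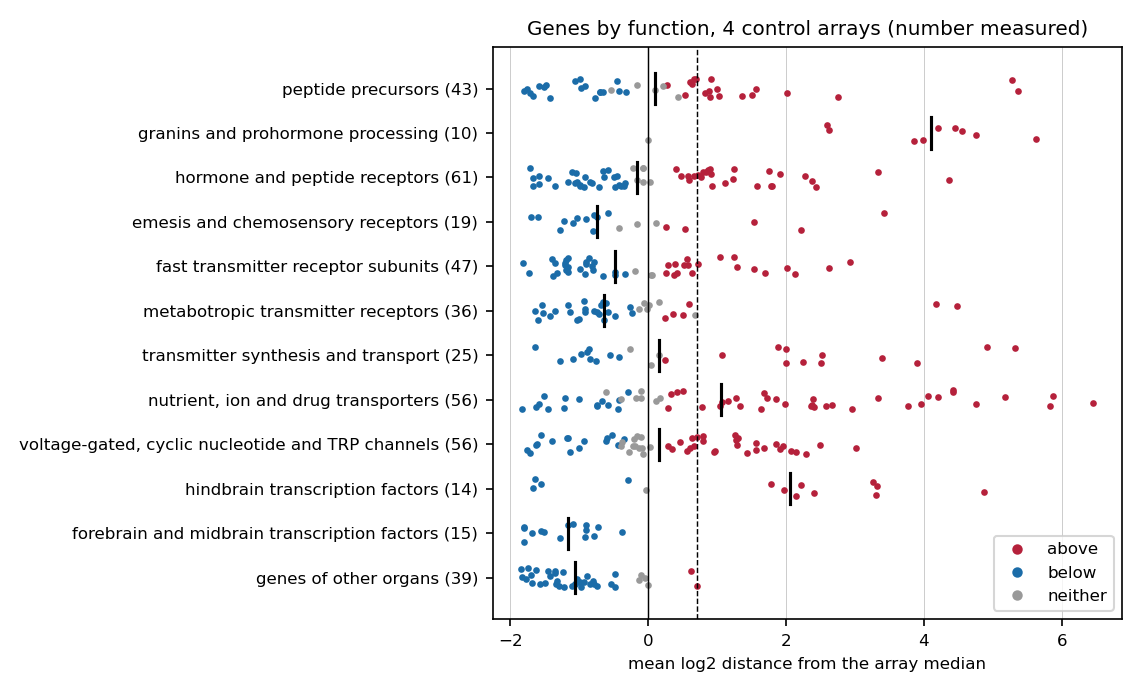
Mean log2 distance from the array median (horizontal axis) of every measured gene in 12 lists by function, with the number measured in brackets, red for genes above, blue below and grey neither, and black ticks at list medians. The solid line marks the array median and the dashed line the median of all named genes at 0.71. Granins lie to the right, forebrain factors and genes of other organs to the left, and receptor lists on both sides.

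Receptors for hormones and peptides stood on both sides of the median, with 26 of 61 above (42.6%) and 29 below (47.5%), and a median distance of -0.17, beside 60.3%, 28.7% and 0.71 for all named genes. Adcyap1r1, the PACAP receptor, was the brightest, with 1109, 1409.8, 1136 and 1184. None of its other probe sets was above the median, with means of 48.3 (neither), 24.0 (below) and 5.8 (below). After Ret came Il6st, the shared signalling subunit of the interleukin 6 family (303 ± 45.6). The adiponectin receptor gene Adipor1 was 289 ± 21.7. Ramp2, a partner of calcitonin family receptors, was 182 ± 16.2, and Ramp1 was 94.8 ± 12.0, while Calcrl, the receptor that these partners turn into the CGRP and adrenomedullin receptors, was below at 25.6 ± 4.1.

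Receptors for fluid balance and blood pressure spanned the median. Npr1, the guanylate cyclase receptor of atrial natriuretic peptide, had 133, 125, 123 and 108. Npr2, its relative for C-type natriuretic peptide, was 206 ± 23.4, and the clearance receptor Npr3 was below at 1.9 ± 0.5. Agtr1a, the main angiotensin II receptor, read 60.5, 60.2, 67.0 and 58.7. Its arrays differed by a CV of 6.0% and all lay above the reference (log2 0.40, adjusted p = 0.000982), but its second probe set was below at 22.3, and the mean of its probe sets lay at -0.11. It was no longer called when a distance of at least 0.5 was required. Agtr1b (29.0 ± 6.8) and Agtr2 (16.3 ± 10.8) were below.

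Several receptors for feeding signals were at or under the reference. Lepr, the leptin receptor, read 17.2, 26.4, 19.8 and 8.4 at its brightest probe set, and all 7 of its probe sets were below the median. Ghsr, the ghrelin receptor, was neither at 31.4, 23.8, 35.8 and 50.1, and below the median without control 4 (limma adjusted p = 0.0294). Mc4r, the melanocortin receptor (10.4 ± 4.6), Insr, the insulin receptor (27.1 ± 3.7), Npy2r (18.7 ± 12.2) and Oxtr, the oxytocin receptor (2.3 ± 1.4), were below. Npy1r (90.4 ± 14.4) and Sctr, the secretin receptor (92.4 ± 18.0), were above. Prlr, the prolactin receptor, was neither and read 30.8, 17.0, 86.9 and 30.8, with control 3 the highest, and it was below the median without that array (limma adjusted p = 0.012).

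Receptors linked to vomiting and chemosensing were below the median in 11 of 19 (57.9%, beside 28.7% of all named genes) and above it in 5 (26.3%, beside 60.3%). Cnr1, the cannabinoid receptor whose agonists reduce nausea, was the brightest with 579.7, 649, 629 and 599. Drd2, the dopamine receptor blocked by several antiemetic drugs, had 144, 146, 155 and 179. Tacr1, the substance P receptor blocked by another class of antiemetics, had 57.9, 53.2, 58.8 and 48.5, just above the reference and below the median of named genes (adjusted p = 0.0144). The call for Tacr1 was lost without control 1 (limma adjusted p = 0.0526) or control 3 (0.0549), and the mean of its probe sets lay at -0.52. The mu opioid receptor gene Oprm1 (20 ± 9.1), Oprd1 (3.5 ± 2.8), Trpv1, the capsaicin receptor (8.7 ± 5.4), and the muscarinic receptor gene Chrm1 (2.1 ± 0.5) were below.

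Of 25 measured enzymes and carriers of transmitters, 12 were above the median (48.0%, beside 60.3% of all named genes) and 10 were below (40%, beside 28.7%), and GABA, glutamate and glycine each had genes at different levels. For GABA, Gad1, which makes it, had 1769, 1832, 1625 and 1815, and the vesicular carrier Slc32a1 was 262 ± 21.2, while Gad2 was neither at 44.9 ± 7.7. For glutamate, Slc17a6 read 618, 569.6, 681 and 541, and Slc17a7, the carrier typical of cortex and cerebellar granule cells, was below at 24.4 ± 4.9. For glycine, the neuronal carrier Slc6a5 was below at 2.8 ± 1.1 and the glial carrier Slc6a9 was above at 109.6 ± 25.3, although the mean of its probe sets lay at -0.26. Hdc, which makes histamine, was below at 8.9 ± 7.1, and so was Lhx5, a factor of inhibitory neurons, at 10.5 ± 5.4.

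Of 8 catecholamine neuron markers measured, 4 were above the median (50.0%, beside 60.3% of all named genes) and 3 were below (37.5%, beside 28.7%). The enzymes of noradrenaline synthesis were above it. Th, the rate-limiting enzyme, had 321, 332, 316 and 311. Its CV was 2.8%. Ddc, which makes dopamine from DOPA, was 866 ± 18.7, and Dbh, which turns dopamine into noradrenaline, had 367, 257, 301 and 373. Pnmt, which makes adrenaline, was below at 12.2 ± 5.7, as was the noradrenaline transporter gene Slc6a2 at 16.6 ± 8.5. Slc18a2, the vesicular monoamine transporter gene, was neither at 50.2 ± 6.9. Maob, a monoamine oxidase also found in glia, was the brightest gene of the list at 2349 ± 256.

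Serotonin and acetylcholine markers were mostly dim. Of 5 serotonin neuron markers measured, 4 were below (80.0%, beside 28.7% of all named genes). These were the transporter gene Slc6a4 (14.5 ± 6.9), the autoreceptor gene Htr1a (15.4 ± 7.7) and the factors Fev (18.0 ± 9.6) and Gata3 (24.4 ± 8.3). Gata2 was neither at 33.9 ± 7.8. Of 6 cholinergic and vagal motor markers, the choline transporter gene Slc5a7 was above at 221 ± 22.6. Chat, which makes acetylcholine, was neither and read 24.3, 24.9, 57.2 and 30.6, and it was below the median without control 3 (limma adjusted p = 0.00684). The motor neuron factor Isl1 (17.0 ± 7.9) and the vesicular acetylcholine carrier Slc18a3 (28.6 ± 7.4) were below. Motor neurons of the dorsal vagal nucleus lie near the area postrema.

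Subunits of transmitter-gated channels were above the median in 19 of 47 (40.4%, beside 60.3% of all named genes) and below in 25 (53.2%, beside 28.7%). The AMPA receptor subunits Gria2 (435 ± 41.7) and Gria1 (348 ± 22.9) and the glycine receptor subunit Glrb (243 ± 25.2) were the brightest. P2rx2, an ATP-gated channel, was 176 ± 10.6, and the nicotinic subunits Chrna3 (125 ± 17.1) and Chrna5 (76.1 ± 15.1) were above. Gabra3 (1.7 ± 0.2) and Chrnb3 (0.7 ± 0.3) were below. Among receptors coupled to G proteins, 6 of 36 were above (16.7%) and 24 were below (66.7%). The GABA-B subunits Gabbr1 (1421, 1033, 1294 and 1499) and Gabbr2 (1100.4, 1033, 1094 and 979) stood far over the rest. Adra1d (2.8 ± 0.8) and Htr1d (3.5 ± 1.9) were below. Htr2c, a serotonin receptor also known from choroid plexus, was neither, with 42.4, 55.4, 253 and 53.6, control 3 being 5.02 times the mean of the other 3, and it was above the median without control 1 (limma adjusted p = 0.043). Without control 3 its mean was 50.5 ± 7.0 and it was again neither (limma adjusted p = 0.176).

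Voltage-gated, cyclic nucleotide and TRP channels were above the median in 28 of 56 (50.0%, beside 60.3% of all named genes) and below in 16 (28.6%, beside 28.7%). Over whole families, counted after the values were seen, 25 of 75 Kcn potassium channel genes were above (33.3%) and 36 below (48.0%), and 8 of 24 Cacn calcium channel genes were above (33.3%) and 11 below (45.8%). The sodium channel subunit gene Scn2b had 464, 454, 460.2 and 459, a CV of 0.9%. The potassium channels Kcnc2 (316 ± 33.4) and Kcnd3 (272 ± 24.1) were next, although Kcnc2 lay 0.44 below the reference by the mean of its probe sets and 0.14 below it without the probe sets that can match several transcripts. Scn7a, the sodium-sensing channel of circumventricular glia, read 69.1, 75.2, 92.6 and 73.6. Its mean was above the array median (adjusted p = 6.22e-05), not called when a distance of at least 0.5 was required, and just under the median of named genes. Hcn4, a pacemaker channel (2.0 ± 0.5), and Trpm8, the cold receptor (1.4 ± 0.5), were below.

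Transporters were above the median in 34 of 56 (60.7%) and below in 15 (26.8%), shares near those of all named genes (60.3% and 28.7%). Over the whole Slc family, counted after the values were seen, 154 of 295 genes were above (52.2%) and 103 below (34.9%). Of 13 Slco genes 3 were above and 8 below, and of 37 Abc genes 21 were above (56.8%) and 13 below (35.1%). After Slc1a3, the brightest were Slc3a2, the heavy chain of amino acid exchangers, with 3519, 3715, 3043 and 3571, and Atp1b1, a sodium pump subunit, with 3288, 3589.6, 3111 and 3352. Slc7a11, the cystine and glutamate exchanger that pairs with Slc3a2, had 2116, 2102, 1929.5 and 2264. Slc1a2, the glutamate transporter that dominates in forebrain astrocytes, was below at 19.2 ± 3.7, and its second probe set was below too, at 18.8. The glucose transporter genes Slc2a1 (168 ± 30.2) and Slc2a3 (133 ± 16.5) were above, while Slc2a2, the low-affinity form of liver and pancreas, was below at 0.5 ± 0.2, as was the sperm sodium pump gene Atp1a4 (3.4 ± 4.2). The water channel Aqp4 of astrocytes was 1096 ± 316, while its other probe sets read 35.5 (neither) and 23.5 (below). The kidney channel Aqp2 was 3.5 ± 1.1.

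Among cell type markers, the astrocyte, fibroblast and neuron lists had the highest medians. Of 16 neuronal markers 15 were above (93.8%, beside 60.3% of all named genes) and 0 were below, with a median distance of 2.86. Snap25, a synaptic membrane protein, had 2765, 2742, 2688 and 2631, and Map2, a microtubule protein of dendrites (1532 ± 133), Gap43, a growth-associated protein (1409.5 ± 141), and Eno2, the neuronal enolase (1403 ± 80.8), followed. Syt1, the calcium sensor of vesicle release, was above the reference at 55.2 ± 4.4 but below the median of named genes, and Rbfox3, the nuclear marker NeuN, was neither at 37.0 ± 1.4. Of 14 astrocyte markers 13 were above (92.9%), with a median distance of 4.09, and Slc1a2 was the exception. Gfap, the astrocyte filament protein, read 456, 809, 1582 and 1178, with control 1 the lowest and control 3 the highest. Gjb6, a gap junction protein, was 80.6 ± 16.9, just under the median of named genes.

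Myelin and precursor markers were mixed. Of 14 oligodendrocyte markers 6 were above (42.9%, beside 60.3% of all named genes) and 4 were below (28.6%, beside 28.7%). Mbp, myelin basic protein, had 1086, 1228, 1309 and 1127, Cnp had 674 ± 95.1 and the tight junction gene of myelin, Cldn11, had 521 ± 134, while Gjb1 (13.3 ± 3.7) and Opalin (20.8 ± 9.9) were below. Of 7 precursor markers 3 were above, the growth factor receptor gene Pdgfra (204 ± 38.6), Olig1 (138 ± 16) and the matrix proteoglycan gene Bcan (89.7 ± 28.5), and 3 were below, among them Olig2 (13.8 ± 5.4) and Sox10 (17.5 ± 4.3). Microglial markers were above in 10 of 15 (66.7%) and below in 5 (33.3%), near the 60.3% and 28.7% of all named genes. Ctss, cathepsin S, had 1096, 1343, 1202 and 1307, and the complement genes C1qa (514 ± 35.5) and C1qb (173 ± 8.6) were next, while Trem2 (21.3 ± 2.5) and Cd163, a marker of perivascular macrophages (18.3 ± 6.9), were below.

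**Figure D4:**
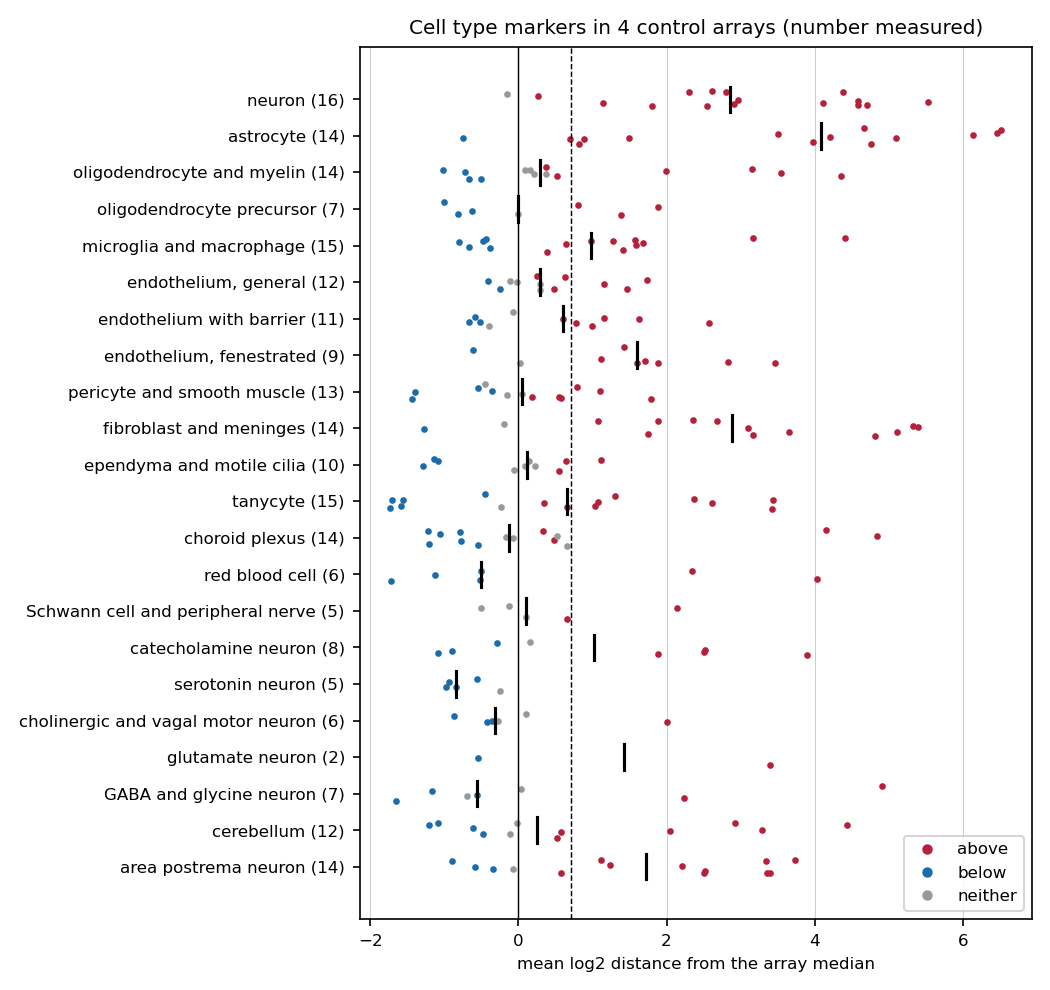
Mean log2 distance from the array median (horizontal axis) of every measured marker in 22 cell type lists, with the number measured in brackets, red for genes above, blue below and grey neither, and black ticks at list medians. The solid line marks the array median and the dashed line the median of all named genes at 0.71. Astrocyte markers have the highest list median at 4.09, and serotonin neuron markers the lowest at -0.84.

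Vessels of the area postrema are known to be fenestrated, and genes linked with fenestrated vessels and with barrier vessels were both measured. Of 9 genes linked with fenestrated vessels 7 were above (77.8%, beside 60.3% of all named genes) and 1 was below, with a median distance of 1.60 beside 0.71. Of 11 genes of barrier vessels 6 were above (54.5%) and 3 were below (27.3%, beside 28.7%), with a median of 0.60, all near the values of all named genes. The difference between the lists was not tested. Plvap, the diaphragm protein of fenestrae, read 116, 127, 76.3 and 132. All 4 arrays lay above the reference (log2 1.11, adjusted p = 1.15e-05). The lipid phosphatase genes Plpp3 (641 ± 129) and Plpp1 (402 ± 25.1), which other cells express too, Igfbp3 (204 ± 42.8) and Esm1, a marker of endothelial tip cells (145 ± 29.3), were also above. So were Vegfa and Nrp1, which other cells express as well, so the count is not one of endothelium alone. Exoc3l2 was neither at 44 ± 5.3, and Car4, a membrane carbonic anhydrase, was below at 23.9 ± 12.1.

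Cldn5, the tight junction protein of barrier vessels, read 75.2, 187, 110.3 and 65.4, with control 2 at 2.24 times the mean of the other 3, and was above the reference on each array (adjusted p = 0.000863). Tfrc, the transferrin receptor (337 ± 14.8), and Slco1a4, an organic anion carrier (118 ± 35.2), were above as well, while the drug efflux pumps Abcb1a (23.9 ± 7.8) and Abcg2 (22.7 ± 11.6) were below. Of 12 general endothelial markers 6 were above (50.0%, beside 60.3% of all named genes) and 2 were below (16.7%, beside 28.7%). The surface glycoprotein gene Emcn (184 ± 44.3) was the brightest of them, and the factor Ets1 was above at 116 ± 14.1. The adhesion gene Pecam1 (28.9 ± 7.3) and the receptor gene Tie1 (33.7 ± 5.4) were below. The call for Tie1 was lost without control 1 (limma adjusted p = 0.118), control 3 (0.132) or control 4 (0.0759). Kdr, the main receptor of VEGF, was 147 ± 21.0 at its brightest probe set but lay 1.01 below the reference without the probe sets that can match several transcripts.

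Fibroblast and meningeal markers were bright, with 12 of 14 above (85.7%, beside 60.3% of all named genes), 1 below and a median distance of 2.89. Aldh1a2, which makes retinoic acid in meninges, had 2551, 2970.2, 2163 and 2242. Mgp, a matrix protein that inhibits calcification, had 2649, 2412, 2087 and 2278. The collagen gene Col1a2 had 2359, 2102, 1624 and 2035. Control 2 was the highest array in the mean of the list, 3.04 beside 2.65 to 2.72 in the others. Slc47a1 was the marker below the median at 8.6 ± 3.8, and Slc6a13, a meningeal GABA carrier, was neither at 36.3 ± 13.6 and below without control 2 (limma adjusted p = 0.0289). Pericyte and smooth muscle markers were above in 6 of 13 (46.2%) and below in 4 (30.8%), with the contractile genes Mylk (189 ± 31.0) and Acta2 (88.0 ± 24.3) and the secreted vitronectin gene Vtn (115 ± 41.7) above and Cnn1 (6.0 ± 2.9) and Tagln (7.6 ± 9.3) below.

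Tanycyte markers were above in 9 of 15 (60.0%, beside 60.3% of all named genes) and below in 5 (33.3%, beside 28.7%), shares near those of all named genes. Vim, the filament protein of tanycytes and radial glia, read 455, 736, 731 and 609.7, and Fabp7, a fatty acid-binding protein of the same cells, read 378, 591, 966 and 659.7. Control 1 was the lowest array for both. Prdx6, a peroxiredoxin, was 347 ± 33.8. Dio2, which activates thyroid hormone (2.1 ± 0.7), Gpr50 (1.7 ± 1.0) and the factor Rax (27.3 ± 5.7) were among the 5 below. Ciliated ependymal markers were above in 3 of 10 (30%) and below in 3 (30%). Their mean distance was -0.41 in control 1, -0.31 in control 2, 0.20 in control 3 and 0.21 in control 4. Arrays 1 and 2 also differ from 3 and 4 in their labelling text, and a link with it was not tested. Dynlrb2, a dynein light chain of cilia, read 56.2, 74.6, 169 and 198, and Foxj1, the factor that directs ciliogenesis, read 78.6, 70.8, 80.4 and 77.0. Tekt1 (71.3 ± 14.3), of the microtubules of cilia, was above, like Foxj1 under the median of named genes, and Tekt4 (10.7 ± 2.3) and Meig1 (8.2 ± 0.9) were below.

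Markers of neighbouring tissue, blood and nerve were above the median in a smaller share than all named genes. Of 12 cerebellar markers 6 were above (50.0%, beside 60.3% of all named genes) and 4 were below (33.3%, beside 28.7%). Calb1, the calcium buffer of Purkinje cells and of many other neurons, had 1274, 1258, 1276 and 1193, Gdf10, known from Bergmann glia, was 561 ± 24.3, and the calcium release channel gene Itpr1 was 432 ± 24.6, while Pcp2 of Purkinje cells (26.3 ± 4.8), Gabra6 of granule cells (10.2 ± 7.5) and the factor En2 (12.5 ± 7.7) were below. Of 6 red cell genes 2 were above (33.3%) and 4 were below (66.7%). The 2 above were Hbb, the beta globin, with 991, 1128, 946 and 756, and Bpgm (284 ± 43.2). Alas2, of haem synthesis (25.9 ± 6.1), Hemgn (11.2 ± 2.5) and Ahsp, the globin chaperone (2.0 ± 2.3), were among those below. Of 5 Schwann cell markers 2 were above, Pmp22 (245 ± 43.2) and Ngfr (77.3 ± 11.1), the latter just under the median of named genes. The peripheral neurofilament gene Prph (50.4 ± 25.2), the sensory neuron channel gene Scn10a (37.7 ± 2.4) and the myelin gene Prx (26.5 ± 12.6) were neither, though Prx was below without control 4 (limma adjusted p = 0.00331). The part of these cells in the other levels was not tested.

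The spread of genes above the median is low in part by choice, because the call needs all 4 arrays on 1 side and a small adjusted p. Genes that vary strongly near the reference, such as Htr2c, Sostdc1, Prlr and Adcyap1, are neither and lie outside these counts. For the genes above, the median SD of log2(signal + 16) was 0.13, with quartiles of 0.09 and 0.18. Their median CV was 9.8%, beside 41.7% for genes below the median. An SD of at least 0.5 was found for 29 of the genes above (0.338%), and for 53 with a pseudocount of 1 and 12 with a pseudocount of 64. Control 3 was the highest array for 15 of the 29, beside 27.8% of all genes above the median, and control 1 the lowest for 15. With a pseudocount of 16 the count is 53 without control 4, against 27 to 40 without another array.

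The largest SD belonged to Ttr, transthyretin, the thyroid hormone carrier that choroid plexus secretes. It read 331, 856, 6559 and 593, so that control 3 was 11.06 times the mean of the other 3, which was 592.9 ± 262.5. The choroid plexus list moved with it in part. Its mean distance was 0.03 in control 1, 0.30 in control 2, 1.01 in control 3 and 0.13 in control 4, and its summed signal was 1640.1 to 1848 in the other 3 arrays and 3979.6 in control 3 with Ttr left out. Enpp2, a secreted lysophospholipase, made up most of that sum on every array and read 1332, 1449, 3141 and 1265. Sostdc1, a secreted BMP antagonist, read 39.7, 64.5, 293 and 37.9, and Folr1, the folate carrier, read 52.7, 39.2, 139.9 and 69.2, neither over the 4 arrays, above the median without control 2 (limma adjusted p = 0.0151) and neither without control 3, with a mean of 53.7 ± 15.0. Without control 3 Sostdc1 had a mean of 47.4 ± 14.9 and was neither, as over all 4 arrays. The defining markers Kl (14.2, 8.8, 29.1 and 2.9) and Kcne2 (11.2, 19.1, 35.5 and 11.9) were highest in control 3 too but stayed below the reference on every array. Cldn3 (9.7 ± 5.5) and Tmem72 (9.9 ± 4.8) were below and did not follow control 3. Cldn3 was highest in control 2 (17.3) and Tmem72 in control 4 (15.2). Ttr and Enpp2 were above the reference on the other 3 arrays as well, with means of 592.9 and 1348.5.

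Other variable genes did not all follow that array. Itih3, a serum protease inhibitor component, read 115, 239, 957 and 350.2, and Car2, a carbonic anhydrase, read 78.3, 74.0, 233 and 74.2, both highest in control 3. Without that array the mean of Itih3 was 234.5 ± 117.9 and that of Car2 was 75.5 ± 2.4, and both were still above the median. Ptgds, the prostaglandin D synthase of meninges, read 891, 3738, 1210.4 and 1757, and Slc6a20a, an imino acid carrier, read 46.3, 294, 74.3 and 74.3, both highest in control 2, the array with the highest mean of the fibroblast and meningeal list. Without control 2 the mean of Ptgds was 1285.9 ± 437.8. Mx2, an interferon-induced GTPase, read 129, 257, 98.6 and 428, with control 4 the highest, and Rnase4, a secreted ribonuclease, read 56.1, 77.6, 195 and 130.2, with a mean of 88.0 ± 38.1 without control 3. The part of choroid plexus or meningeal RNA in these values was not tested.

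**Figure D5:**
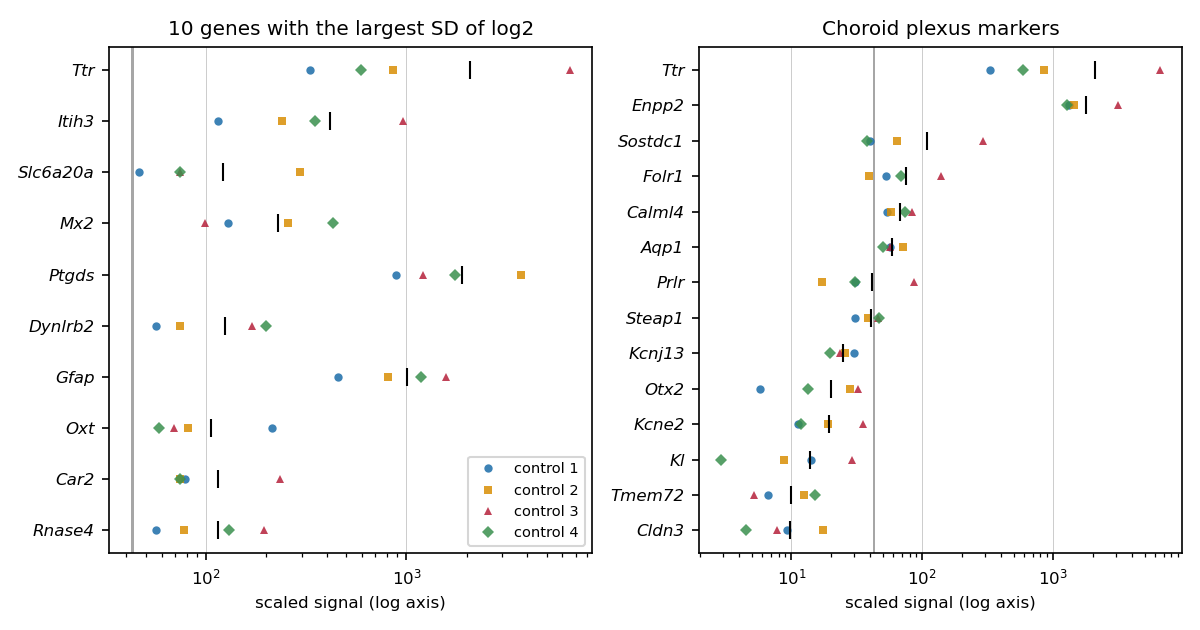
Signal on each of the 4 control arrays (horizontal axes, log scale) of the 10 genes with the largest SD of log2 signal among genes above the median (left) and of the 14 measured choroid plexus markers (right), with 1 coloured symbol per array, a black tick at the mean and a grey band at the array medians. Control 3 (red triangles) is the highest array for 9 of the 14 choroid plexus markers, beside 27.8% of all genes above the median, with Ttr at 6559.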

How the data were processed

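RNA from the area postrema was hybridised to 1 Rat 230 2.0 array per pool of 5 rats, after QIAzol extraction, column clean-up and amplification with a MessageAmp II kit, per the labels' protocols. The deposited values are linear intensity signals, 1 per probe set and array, made by the authors with GCOS 1.2, per the submitters' processing notes. The software settings were not given in the sources used here. For every array the mean left after trimming 2% of values at each end was 100.03, so the values were used as deposited. Samples were grouped by title, and 0 columns lacked a sample. Of 31099 probe sets, 57 are array controls. A single gene symbol was attached to 20826, several to 436 and none to 9780, and 20764 of the symbols matched a gene table of the assembly GRCr8. The files name no genome build, so no position is given for a probe set.

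Values were log2(signal + 16). The one-sample test used limma 3.58.1 in R 4.3.3 (lmFit with an intercept only, eBayes with trend and robust, two-sided, adjusted over 31042 probe sets, threshold 0.05), and arrays 3 and 4 were set against 1 and 2 over probe sets at or above the 40th percentile. The p-values reflect the spread between pools, and the number of arrays limits the precision. Python 3.11.15, pandas 2.3.3, numpy 2.4.6 and matplotlib 3.10.9 were used for the rest, and the test was tested on simulated data.

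The members and the lists (12 by function, 22 by cell type, 596 of 681 genes measured) were chosen with earlier results of these data known. The genes named are the 30 brightest, the 3 highest and 2 lowest of each list, the 10 with the largest SD among genes above the median, and a set of 27 receptors, enzymes and markers. Chosen after their values were seen were Adcyap1, Adipor1, Agtr1b, Agtr2, Aqp2, Aqp4, Avp, Calcrl, Chga, Chrna3, Chrna5, Crh, Esm1, Folr1, Gal, Gap43, Gipr, Hoxb2, Hoxb7, Hoxd1, Insr, Kcne2, Kl, Mc4r, Npff, Npr2, Npy, Npy1r, Npy2r, Nrp1, Nts, Nucb2, Oprm1, P2rx2, Pcp2, Phox2a, Pomc, Prlr, Ramp1, Ramp2, Rax, Scg2, Scg3, Sctr, Slc18a2, Slc2a3, Slc6a9, Slc7a11, Trpv1, Ucn, Vegfa and Vip, and, as families, the Hox, ribosomal, respiratory chain, Kcn, Scn, Cacn, Slc, Slco and Abc genes. The alternatives were other pseudocounts, references, filters, normalization and probe set rules, a minimum distance, subsets of arrays and each array left out.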

Additional observations from a re-analysis of the deposited data

Results flagged for a closer look

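Of 258 genes and 34 list means tested, 15 had 1 array whose gap to its nearest neighbour was large for the range of the 4 arrays, and chance gives about 1 in 20. Control 3 was the far array, and high, for Enpp2 (3140.9), Htr2c (253.2), Car2 (233.3) and the mean of the peptide precursors (0.29 on the log2 scale). Control 2 was far and high for the mean of the fibroblast and meningeal list (3.04), Ret (626.7), Slco1a4 (171.1) and Ahsp (5.5). Control 1 was far for Slc2a3 (157.1), Emx1 (41.5), Gata2 (22.2, the lowest) and Npr3 (2.6). Control 4 was far for Calcrl (31.7), Atp1a4 (9.6) and Chrnb3 (1.1). Ahsp, Npr3, Atp1a4 and Chrnb3 lie near the bottom of the signal range.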

How the results depend on the processing

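No paired analysis was possible because only 1 group of arrays was used. Over the 258 named genes that were followed, 181 kept their call of above, below or neither under every alternative that gave a value. Over all alternatives 3668 of 3812 values kept it. A gene that stayed neither counts as kept whatever its sign, and sign changes are given only for genes called before or after. All 258 kept their call with a pseudocount of 1 or 64, with quantile normalization and without trend and robust. Against the median of the named genes, the count of genes below rose from 4076 to 6300, and 16 named genes called before or after changed sign: Acta1 (-0.01), Agtr1a (-0.32), Chrna5 (-0.09), Exoc3l2 (-0.70), Foxj1 (-0.06), Gad2 (-0.68), Gjb6 (-0.02), Ins1 (-0.72), Krt10 (-0.10), Ngfr (-0.06), Ramp3 (-0.14), Scn7a (-0.06), Syt1 (-0.45), Tac1 (-0.08), Tacr1 (-0.46) and Tekt1 (-0.16). With a gene's probe sets averaged, Agtr1a (-0.11), Kcnc2 (-0.44), Slc6a9 (-0.26) and Tacr1 (-0.52) changed sign. Without probe sets that can match several transcripts, Gnas (-0.32), Kcnc2 (-0.14), Kdr (-1.01) and Ndrg2 (-1.53) did. A filter at the 20th percentile, which removes dim probe sets, left 2242 genes and 146 list members below, and a minimum distance of 0.5 left 160 list members below, against 245. That minimum distance ended the call of 41 of the 258 named genes, more than any other setting, among them Glp1r, Agtr1a, Tacr1, Ramp3, Tac1, Oxt, Gal, Insr and Scn7a. The number of genes with an SD of at least 0.5 was 53 with a pseudocount of 1 and 12 with 64, against 29. The test of arrays 3 and 4 against 1 and 2 called 1 probe set with a pseudocount of 64.

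With each array left out in turn, genes above numbered 8492 to 8524, genes below 3978 to 4029, list members above 265 to 269 and below 239 to 246, the median SD was 0.114 to 0.126, and genes with an SD of at least 0.5 numbered 27 to 53, with 53 without control 4. Signals near the bottom of the range carry background, so that their order is not informative.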
